A study of Mus musculus with 7 samples.

Results

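The members described here are the variable (V) segments of the T cell receptor alpha and beta chains: every gene whose symbol starts with Trav or Trbv in the gene tables of replicate 2 of naive and of activated double-negative T cells (DNT cells). There are 163 such genes among the 31053 of those tables, 128 Trav segments on chromosome 14 and 35 Trbv segments on chromosome 6. The gene tables of the other 5 libraries of the series, made with the earlier kit v2, list 27998 genes and no Trav or Trbv segment, so each group enters with 1 library here and no test between groups is possible. Every interval below is a 95% interval for counting error only (exact Poisson for counts, exact Clopper-Pearson for shares, exact conditional for ratios) and says nothing of the spread between mice or cultures.

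Both libraries come from the spleen of male C57BL/6 mice that were 8 weeks old. Naive DNT cells were sorted as positive for CD3 and TCRαβ, and as negative for NK1.1, TCRγδ, CD4, CD8 and both CD1d tetramers named in the labels (aGal-CD1d and LPC-CD1d, which bind NKT cells). Activated DNT cells were such cells after a culture of 3 days with anti-CD3, anti-CD28 and IL-2 (20 ng/ml). No culture without stimulation is in the series, so time in culture and stimulation cannot be told apart. Both were made with the Chromium 3′ kit v3, in which 1 cell barcode stands for 1 droplet and 1 unique molecular identifier (UMI) for 1 captured RNA molecule.

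An alpha chain gene is assembled in the thymus from 1 V and 1 J segment, and a beta chain gene from V, D and J segments, each then spliced to a constant exon (Trac, or Trbc1 or Trbc2). A T cell therefore carries 1 productive beta rearrangement as a rule, whereas alpha rearrangement can go on at both alleles, so 2 alpha transcripts in 1 cell are well known. Some T cells use nearly fixed receptors: NKT cells pair Trav11 joined to Traj18 with few beta segments, and MAIT cells use Trav1 joined to Traj33. Because the kit primes at the poly(A) tail and reads the 3′ end, while the V segment lies at the 5′ end of the message, V segment counts are sparse, and a read of a V segment does not show which J segment it is joined to.

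The sequences below are those of the V exons on which the results turn, read from the GENCODE vM21 transcripts on GRCm38. Trav11 (chr14:53519569-53519859, plus strand) has the lowest ratio of activated to naive level among segments with at least 30 UMIs, and Trav11n (chr14:53135388-53135678, plus strand) is its copy annotated as a pseudogene. Capitals in Trav11n mark the 6 positions that differ from Trav11. A further copy, Trav11d, differs from Trav11 at 1 position, being 1 base shorter. Traj18 (chr14:54200777-54200842, plus strand) is the joining segment known from NKT cells.
Trav11: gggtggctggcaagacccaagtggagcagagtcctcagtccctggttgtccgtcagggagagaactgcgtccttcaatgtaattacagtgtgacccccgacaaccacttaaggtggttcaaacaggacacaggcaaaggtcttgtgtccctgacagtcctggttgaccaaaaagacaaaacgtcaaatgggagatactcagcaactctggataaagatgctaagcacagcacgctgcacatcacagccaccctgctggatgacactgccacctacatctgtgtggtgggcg
Trav11n: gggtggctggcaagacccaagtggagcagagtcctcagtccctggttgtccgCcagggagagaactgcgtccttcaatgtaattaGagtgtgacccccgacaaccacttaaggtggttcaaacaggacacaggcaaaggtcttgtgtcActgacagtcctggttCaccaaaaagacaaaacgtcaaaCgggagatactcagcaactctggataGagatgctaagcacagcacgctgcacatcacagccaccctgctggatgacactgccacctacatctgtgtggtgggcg
Traj18: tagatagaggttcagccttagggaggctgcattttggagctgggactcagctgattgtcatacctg

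The 3 members of the Trav16 family are shown because they held the most alpha chain UMIs and yet are nearly the same in sequence, which bears on how reads can be given to 1 of them. The first base of each exon is left off. Capitals in Trav16 (chr14:53743406-53743705, plus strand) and Trav16d-dv11 (chr14:53047522-53047821, plus strand) mark the 4 and 3 positions that differ from Trav16n (chr14:53351322-53351621, plus strand).
Trav16n: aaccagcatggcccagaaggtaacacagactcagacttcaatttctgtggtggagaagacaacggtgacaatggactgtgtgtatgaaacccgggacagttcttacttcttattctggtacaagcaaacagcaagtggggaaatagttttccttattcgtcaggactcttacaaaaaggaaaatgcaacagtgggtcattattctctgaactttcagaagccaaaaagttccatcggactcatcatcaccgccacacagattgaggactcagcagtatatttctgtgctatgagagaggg
Trav16: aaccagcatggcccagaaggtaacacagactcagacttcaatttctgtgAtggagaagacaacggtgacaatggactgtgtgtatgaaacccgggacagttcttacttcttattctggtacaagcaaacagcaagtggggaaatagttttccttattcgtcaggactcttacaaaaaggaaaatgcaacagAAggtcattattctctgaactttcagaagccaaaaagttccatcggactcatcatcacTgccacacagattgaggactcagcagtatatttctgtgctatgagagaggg
Trav16d-dv11: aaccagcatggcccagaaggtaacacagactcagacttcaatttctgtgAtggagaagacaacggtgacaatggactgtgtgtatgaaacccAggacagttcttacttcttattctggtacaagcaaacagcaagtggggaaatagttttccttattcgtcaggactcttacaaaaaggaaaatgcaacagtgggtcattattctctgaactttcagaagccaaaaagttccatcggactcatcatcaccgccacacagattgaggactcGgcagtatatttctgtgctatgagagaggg

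Trbv12-2 (chr6:41119072-41119364, plus strand) was the leading beta segment in both libraries. Its closest relative among the members the results name, Trbv12-1 (chr6:41113775-41114067, plus strand), differs from it at 32 positions, shown in capitals, with an identity of 89.1%.
Trbv12-2: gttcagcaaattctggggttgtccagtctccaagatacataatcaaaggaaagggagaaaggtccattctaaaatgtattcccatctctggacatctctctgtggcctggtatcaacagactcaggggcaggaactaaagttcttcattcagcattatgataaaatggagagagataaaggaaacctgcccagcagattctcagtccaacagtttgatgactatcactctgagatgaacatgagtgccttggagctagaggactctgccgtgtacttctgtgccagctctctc
Trbv12-1: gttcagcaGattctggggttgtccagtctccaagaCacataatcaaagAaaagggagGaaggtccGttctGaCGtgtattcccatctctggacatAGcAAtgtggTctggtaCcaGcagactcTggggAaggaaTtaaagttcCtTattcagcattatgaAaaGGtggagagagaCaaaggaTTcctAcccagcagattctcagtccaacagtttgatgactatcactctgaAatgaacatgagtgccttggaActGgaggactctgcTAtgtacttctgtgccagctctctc

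After filtering, the naive library held 6728 of 7248 barcodes with 53653855 UMIs (median 7556 per barcode), and the activated library 1549 of 1634 barcodes with 25347948 UMIs (median 9386). The quartiles of UMIs per barcode ran from 5972 to 9293 in the naive and from 5903 to 18437 in the activated library. The libraries shared 4 barcodes. At least 3 of 6 T cell markers were in 6557 of 6728 naive and 1475 of 1549 activated barcodes. Levels are given as CPM (UMIs per 1000000 UMIs of the library). Cd4 was at 0.0559 and 0.0789 CPM in the naive and activated library, Cd8a at 0.317 and 3.47 CPM (24 of its 88 activated UMIs in 1 barcode), and Cd8b1 at 5.20 and 2.33 CPM. Transcripts linked to gated-out classes were present. Klrb1c, the NK1.1 gene, was in 482 naive barcodes (7.16%) and 29 activated ones, whereas Ncr1, a further NK marker, was in 17 (0.253%) and 2. At least 3 of 5 γδ T cell markers were in 434 naive and 70 activated barcodes. Of these markers the gamma constant genes Tcrg-C1, Tcrg-C2 and Tcrg-C4 were in 19.2%, 27.0% and 19.4% of naive barcodes. Whether such barcodes hold NK or γδ T cells was not tested. Markers of other cells differed between the libraries. The summed level of 8 B cell markers was 476 CPM in the naive and 86.1 CPM in the activated library. That of 4 red cell markers was 812 and 0.434 CPM, with Hba-a1 and Hba-a2 at 0 UMIs in the activated library. That of 6 myeloid markers was 253 and 180 CPM, of which Cst3 alone made up 114 and 157 CPM. Cst3 was in 51.2% of naive and 65.1% of activated barcodes. The other myeloid markers were all lower in the activated library, such as Lyz2 (63.5 and 0.789 CPM) and Ctss (68.2 and 21.2 CPM). Leaving out the 258 naive and 10 activated barcodes with at least 3 B cell, myeloid or red cell markers gave ratios of activated to naive level of 1.16 for both chains, beside 1.17 and 1.19 with them. Summed over a library, fewer cells that use a segment and less of its RNA per cell cannot be told apart.

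Alpha chain V segments gave 1477 UMIs in the naive library, or 27.5 CPM (26.1 to 29.0), and 813 UMIs in the activated library, or 32.1 CPM (29.9 to 34.4). The activated level was 1.17 times the naive level (1.07 to 1.27). Beta chain V segments gave 1113 UMIs in the naive library, or 20.7 CPM (19.5 to 22), and 624 UMIs in the activated library, or 24.6 CPM (22.7 to 26.6), a ratio of 1.19 (1.07 to 1.31). Both chains were slightly higher in the activated library, with intervals above 1. Several UMIs can come from 1 barcode and are then not independent, so these intervals are too narrow. Trac, the alpha constant gene, was at 659 CPM in the naive and 502 CPM in the activated library. For every 100 Trac UMIs there were 4.18 Trav UMIs (3.97 to 4.40) in the naive and 6.39 (5.96 to 6.85) in the activated library. For every 100 UMIs of Trbc1 and Trbc2 there were 0.726 Trbv UMIs (0.684 to 0.770) and 0.973 (0.898 to 1.05). Per constant-gene UMI both chains were thus higher in the activated library, and the beta chain gave fewer V segment UMIs than the alpha chain in both.

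A Trav UMI was present in 969 of 6728 naive barcodes (14.4%, 13.6 to 15.3) and in 442 of 1549 activated barcodes (28.5%, 26.3 to 30.9). For Trbv the counts were 963 naive barcodes (14.3%, 13.5 to 15.2) and 406 activated barcodes (26.2%, 24.0 to 28.5). The gap between the libraries was smaller at equal depth. With every barcode thinned to 4000 UMIs, which left out 455 naive and 210 activated barcodes that were shallower, the Trav share was 9.09% (8.39 to 9.82) in the naive and 13.7% (11.9 to 15.6) in the activated library, and the Trbv share 7.76% (7.11 to 8.45) and 9.56% (8.04 to 11.3). At equal depth the 2 intervals stayed apart for Trav and overlapped for Trbv. The background was sought in barcodes that should lack the receptor. Of the 71 naive barcodes with at least 3 B cell markers and no UMI of the Cd3 genes (median 4997 UMIs), 0 held a Trav UMI and 0 a Trbv UMI, which allows a share of up to 4.23%. In naive barcodes with at least 2 Cd3 genes (median 7629 UMIs) the share was 14.8% for either chain. Another 93 naive barcodes had at least 3 B cell markers and a Cd3 UMI (median 8117 UMIs). Of these, 14 held Trav (15.1%) and 9 Trbv (9.68%). Asking for 0 Cd3 UMIs also leaves out barcodes with stray T cell RNA, so the 0 of 71 cannot measure that background. In the activated library only 3 barcodes had at least 3 B cell markers and no Cd3 UMI, too few for the same comparison. Of 41 others with no Cd3 UMI (median 726 UMIs), 3 held Trav and 2 Trbv.

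The share of barcodes with a V segment grew with the depth of the barcode in both libraries. In the naive library it went from 6.15% for Trav and 6.81% for Trbv below 4000 UMIs to 29.4% and 32% between 16000 and 32000 UMIs. In the activated library the Trav share went from 11.9% below 4000 UMIs to 44.1% from 32000 UMIs up, and the Trbv share from 5.71% to 65.3%. The activated chains differed in their level per UMI. Activated Trav was lower in deeper barcodes, from 64.1 CPM (43.5 to 90.9) in the shallowest class, 63.3 and 47.8 CPM in the next, to 27.6 and 19.4 CPM (17.0 to 22.1) in the deepest, whereas activated Trbv lay between 22.3 and 28.9 CPM in all 5 classes. Trac lay between 453 and 620 CPM in the 5 activated classes, a narrower range than that of the Trav level. In the naive library Trav lay between 25.8 and 29.9 CPM in the 4 classes below 32000 UMIs. The ratio of 1.17 for the whole Trav chain is therefore a mean over activated barcodes that ranged from above to below the naive level.

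**Figure D1:**
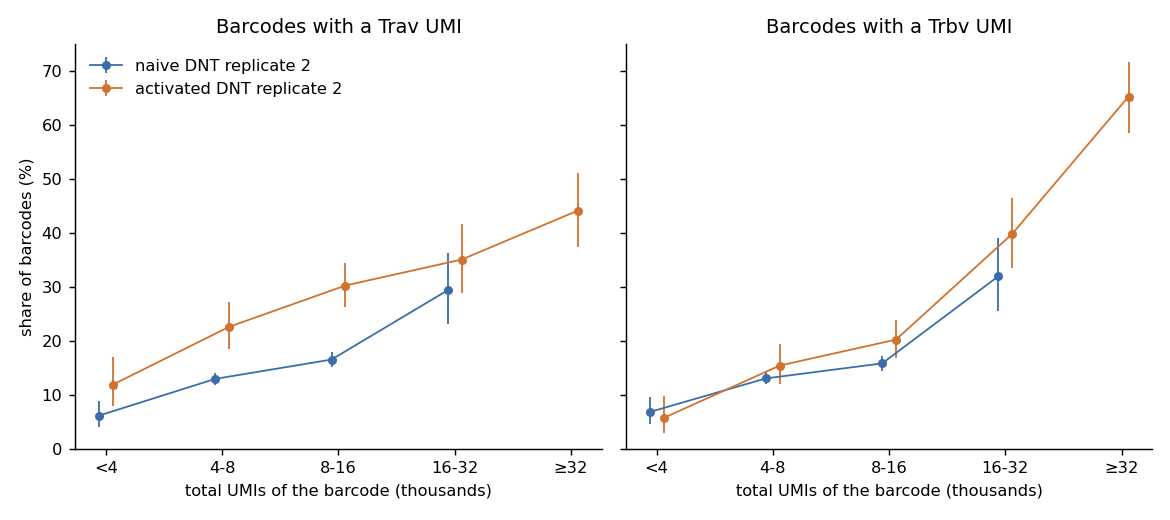
Share of barcodes (percent) with a Trav UMI (left) and with a Trbv UMI (right) against the total UMIs of the barcode (5 classes), in naive (blue) and activated (orange) DNT replicate 2; vertical lines are 95% binomial intervals, and the naive class from 32000 UMIs up, with 8 barcodes, is not drawn. Activated barcodes lie above naive ones for Trav at 4000 to 16000 UMIs, while for Trbv the intervals overlap in the 4 classes drawn for both, with points at 15.8% and 20.2% from 8000 to 16000 UMIs and at 32% and 39.8% from 16000 to 32000.

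All 22 Trbv segments annotated as V genes were detected in both libraries. Of the 13 annotated as pseudogenes, Trbv24 had 9 and 15 UMIs, Trbv12-3 had 1 in each library, and the other 11 had none. Trbv12-2 led the beta chain in both libraries. It gave 309 UMIs in 270 naive barcodes, which was 27.8% of naive Trbv UMIs (25.2 to 30.5), and 116 UMIs in 85 activated barcodes, which was 18.6% (15.6 to 21.9). Its CPM in the activated library was 0.795 times that in the naive library (0.636 to 0.987). Per kilobase of exon it stood first in both libraries as well, at 15 and 11.9 CPM per kilobase. The next naive segment on that scale, Trbv3, stood at 3.85 CPM per kilobase, and the next activated one, Trbv13-2, at 4.53.

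The other beta segments were spread more evenly. Trbv3 (94 naive and 46 activated UMIs), Trbv2 (90 and 63), Trbv13-1 (71 and 35), Trbv12-1 (65 and 38), Trbv13-2 (61 and 39), Trbv1 (55 and 38), Trbv29 (49 and 33), Trbv19 (46 and 46) and Trbv15 (41 and 29) completed the 10 with the most UMIs. Their usage ran from 3.68% for Trbv15 to 8.45% for Trbv3 in the naive library, and from 4.65% for Trbv15 to 10.1% for Trbv2 in the activated library. Neighbours in that order had overlapping intervals throughout. The libraries' lists of 10 leading beta segments had 9 in common, and these lists covered 79.2% of naive and 77.4% of activated Trbv UMIs. Spearman's rho of UMIs between the libraries over the 24 detected segments was 0.92, a description of 2 libraries whose segments share the same capture and lengths. Trbv31, which lies beyond the constant genes in opposite orientation (minus strand), had 17 and 16 UMIs, a ratio of 1.99 (0.942 to 4.19). Segments known from NKT cell receptors, Trbv13-1, Trbv13-2, Trbv13-3, Trbv29 and Trbv1, together with Trbv19, known from MAIT cells, all lay between 3.41% and 7.37% of Trbv UMIs in each library.

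**Figure D2:**
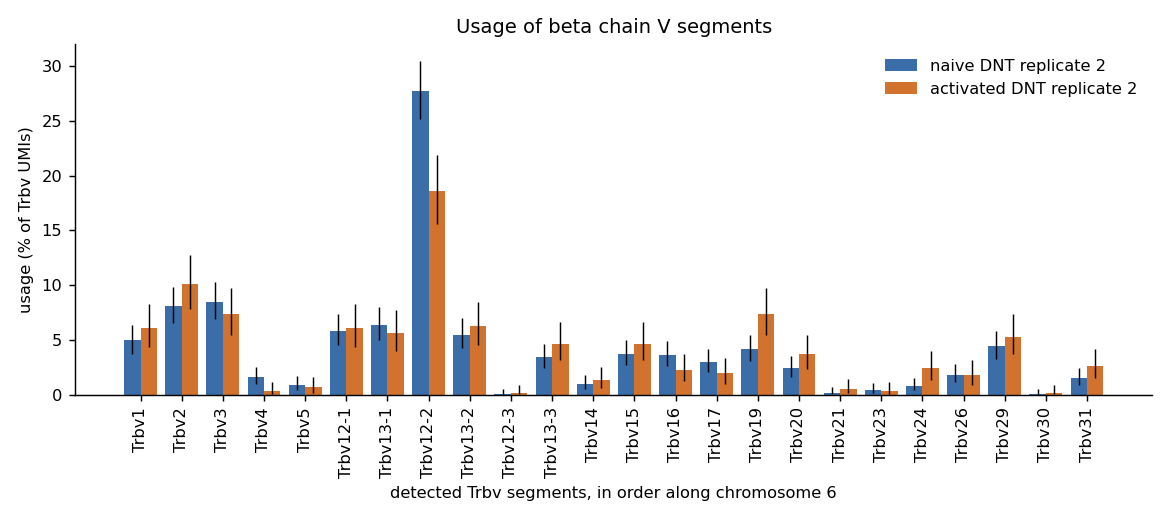
Share of each detected Trbv segment in all Trbv UMIs of its library (percent, bars start at 0), with segments in order along chromosome 6, naive DNT replicate 2 in blue and activated DNT replicate 2 in orange; lines are 95% binomial intervals. Trbv12-2 stands far above the rest in both libraries, at 27.8% and 18.6%.

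The alpha chain had no leader of that size. Of 128 Trav segments, 77 were detected in the naive and 69 in the activated library, 64 of them in both, and 46 in neither. Trav16 gave 98 naive UMIs in 67 barcodes (6.64%, 5.42 to 8.03) and 51 activated UMIs in 32 barcodes (6.27%, 4.71 to 8.17). Its near copy Trav16n gave 93 naive UMIs in 75 barcodes (6.30%, 5.11 to 7.66) and 90 activated UMIs in 48 barcodes (11.1%, 9 to 13.4). Next in the naive library came Trav11 with 83 UMIs in 57 barcodes (5.62%, 4.50 to 6.92). In the activated library Trav11 gave 7 UMIs in 6 barcodes (0.861%, 0.347 to 1.77). The other leading segments were Trav6-7-dv9 (63 naive and 46 activated UMIs), Trav13-1 (61 and 36), Trav4-4-dv10 (56 and 18), Trav12-2 (55 and 17), Trav3-3 (51 and 42), Trav13-4-dv7 (48 and 12) and Trav21-dv12 (45 and 15). The libraries' lists of 10 leading alpha segments had 5 in common and covered 44.2% of naive and 48.0% of activated Trav UMIs. Spearman's rho over the 82 segments detected in either library, many of them with few UMIs, was 0.79. Over the 25 with at least 30 UMIs it was 0.23, and over the 16 such Trbv segments 0.88. The highest totals over both libraries were 183 UMIs for Trav and 425 for Trbv. Segments were also chosen by those totals, and the part of range and choice in the 2 values was not tested.

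Per kilobase of exon the order changed at the top. Trav11, with an exonic length of 343 bases, stood first in the naive library at 4.51 CPM per kilobase, ahead of Trav16 at 4.35 and Trav16n at 4.21. Among activated barcodes Trav16n stood first at 8.62 CPM per kilobase, Trav16 and Trav6-7-dv9 followed at 4.79, and Trav11 came at rank 33 with 0.805.

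Many Trav segments belong to duplicated blocks of the locus, whose copies carry a d or an n in their names. Segments with neither letter, 55 in all, took 76.4% of naive and 66.3% of activated Trav UMIs. The 34 n copies took 16.7% and 24.8%, and the 39 d copies 6.97% and 8.86%. Near-identical copies set a limit on these counts, because a read that matches several copies cannot be given to 1 of them. Of the 128 Trav segments, 38 share every window of 90 bases with another V segment. Only 4 of these 38 had any UMI, 5 UMIs in all over both libraries. Of the 67 segments that share some windows, 59 were detected with 1795 UMIs, and of the 23 that share none, 19 with 490 UMIs. No Trbv segment shares a window of that length with another member. A Trav segment listed at 0 can therefore be one that these counts could not show, which holds for no Trbv segment by this measure. Trav11 shares 99.6% of its windows with another V segment, and its closest member is Trav11d. It held 90 UMIs over both libraries, against 1 for Trav11d and 2 for Trav11n. How its reads were told from those of Trav11d was not tested.

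**Figure D3:**
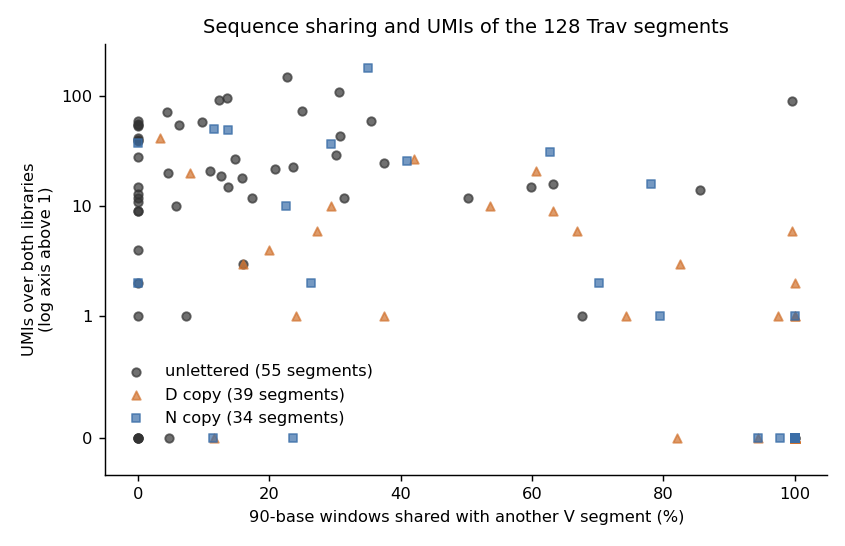
Each point is 1 of the 128 Trav segments, with the share of its 90-base windows that also occur in another V segment (percent) on the horizontal axis and its UMIs over both libraries on the vertical axis (log axis above 1, with 0 at the bottom). Of the 38 segments with every window shared, 4 had a UMI, whereas 19 of the 23 with none shared did.

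For the comparison between libraries a segment needed at least 30 UMIs over both, which 25 Trav segments (73.3% of Trav UMIs) and 16 Trbv segments (94.6%) reached. Of the 25 Trav segments, 4 were at least 2-fold higher and 2 at least 2-fold lower in the activated library, and of the 16 Trbv segments 1 was higher and 0 were lower. Over all 12482 genes with 30 UMIs or more, 17.6% were at least 2-fold higher and 17.3% at least 2-fold lower. Among the 3691 genes with UMI totals in the range of these segments the shares were 23.3% and 26.4%. The counts of V segments past 2-fold were thus near or under the background in both directions. The median ratio was 1.15 over the 25 Trav segments, 1.39 over the 16 Trbv segments and 1.01 over all genes, and 16 of 25 and 13 of 16 segments lay above 1.

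The segments past 2-fold differed in how many barcodes stood behind them. Trav16n, at 1.73 CPM in the naive and 3.55 CPM in the activated library, had a ratio of 2.05 (1.52 to 2.77) over 75 and 48 barcodes, and 1.96 without its richest barcode in each library. Trav1, the segment known from MAIT cells, had 24 naive UMIs in 19 barcodes and 32 activated UMIs in 26 barcodes. Its ratio was 2.82 (1.61 to 5.01) both with all barcodes and, with a wider interval (1.55 to 5.23), without the richest. Trav14n-3 (15 naive and 22 activated UMIs, ratio 3.10) and Trav14-3 (22 and 22 UMIs, ratio 2.12) rested on 1 activated barcode each: 13 of the 22 Trav14n-3 UMIs and 14 of the 22 Trav14-3 UMIs sat in a single barcode. With the richest barcode of each library left out the ratios were 1.74 (0.636 to 4.61) and 0.891 (0.338 to 2.13). Trav8d-2 was alike, with 16 of 18 activated UMIs in 1 barcode, and went from 1.59 to 0.224 when treated the same way. UMIs of 1 barcode come from 1 droplet and are not independent, so the counting intervals of ratios are too narrow for such segments.

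On the lower side, Trav11 had a ratio of 0.179 (0.0696 to 0.384) and Trav14-1, with 36 naive UMIs in 20 barcodes and 6 activated UMIs in 5 barcodes, one of 0.353 (0.121 to 0.845). Without the richest barcodes these were 0.136 and 0.283. Among beta segments, Trbv19 had 46 UMIs in 45 naive barcodes and 46 UMIs in 29 activated barcodes, a ratio of 2.12 (1.38 to 3.26) in CPM and 2.03 without the richest barcodes. Its share of Trbv UMIs was 4.13% (3.04 to 5.47) in the naive and 7.37% (5.45 to 9.71) in the activated library, under 2-fold apart.

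**Figure D4:**
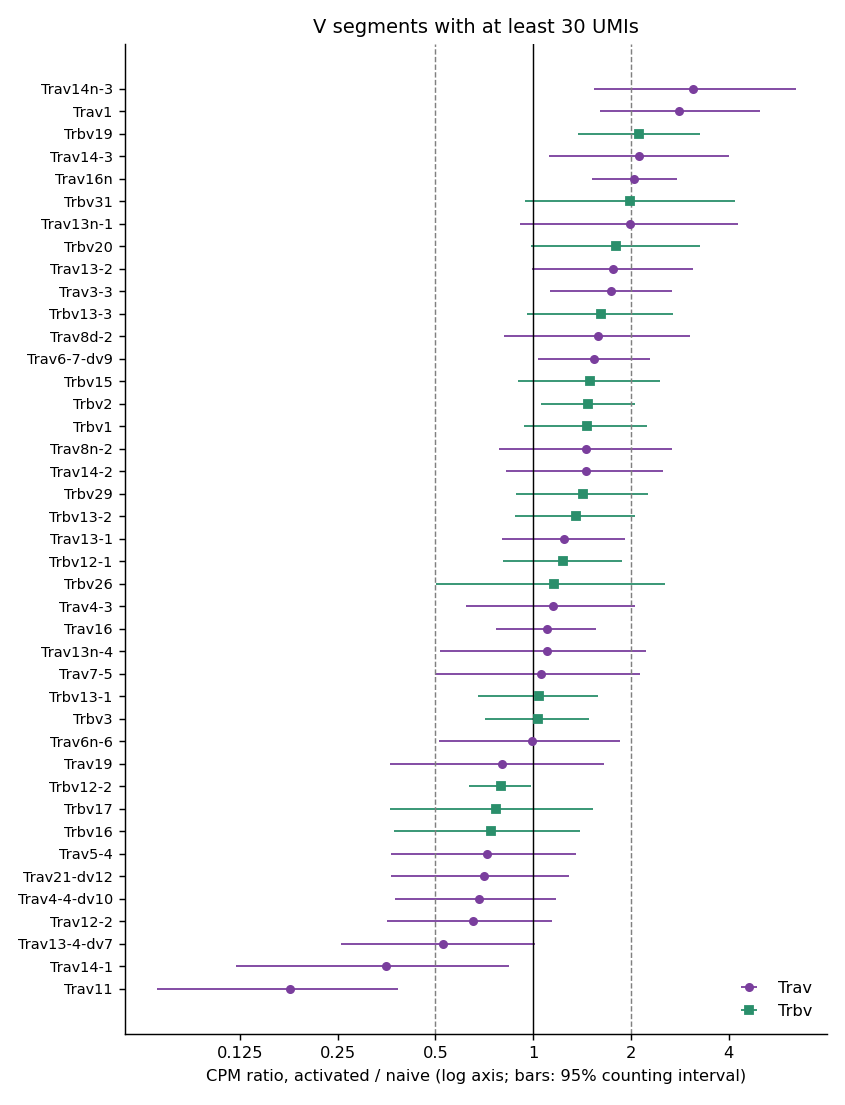
Ratio of CPM in activated to naive DNT replicate 2 (log axis) for the 25 Trav (purple circles) and 16 Trbv (green squares) segments with at least 30 UMIs, ordered by ratio; lines are 95% counting intervals and dashed lines mark 2-fold. Trav11 lies lowest at 0.179 and Trav14n-3 highest at 3.10, of which 13 of 22 activated UMIs came from 1 barcode.

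Trav11 stood out in the naive library for the genes found with it. A UMI of Trav11 was in 57 naive and 6 activated barcodes, and one of Traj18 in 55 naive and 6 activated barcodes. Of 60 Traj genes listed, 12 had any UMI, and Traj18 held 59 of the 69 Traj UMIs of the naive and 6 of the 10 of the activated library. Both Trav11 and Traj18 were seen in 10 naive barcodes: 17.5% of the Trav11 barcodes (8.75 to 29.9) held Traj18, against 5 of the 912 naive barcodes with another Trav segment (0.548%). In all, 102 naive barcodes (1.52%, 1.24 to 1.84) and 12 activated barcodes (0.775%, 0.401 to 1.35) held Trav11 or Traj18. With barcodes thinned to 4000 UMIs, Trav11 was in 36 of 6273 naive and 0 of 1339 activated barcodes, which allows a share of up to 0.224%. Since the sort took cells negative for both CD1d tetramers, and since V and J were not read on 1 molecule, it was not tested whether these barcodes hold the joined invariant chain.

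The 102 naive barcodes with Trav11 or Traj18 (median 8237 UMIs) were set beside the 888 with another Trav segment and none of Trav11, Traj18 or Trav1 (median 8080 UMIs). Of the genes examined, some were in more of the former, some in fewer. Zbtb16, which encodes the transcription factor PLZF of NKT cells, was in 50% (39.9 to 60.1) against 7.43% (5.79 to 9.36). Cd40lg, the ligand of CD40, was in 38.2% against 5.86%, and the cytokine gene Il4 in 22.5% against 2.03%, both genes named after their values were seen. Genes frequent among the other barcodes were rarer. Fcer1g, an adaptor of Fc and NK receptors, was in 11.8% (6.23 to 19.6) against 48.9% (45.5 to 52.2), Klra7, which encodes an inhibitory Ly49 receptor, in 8.82% against 31.6%, Eomes, a transcription factor of cytotoxic cells, in 4.90% against 21.7%, Ikzf2, which encodes Helios, in 59.8% against 84.5%, and Dapl1 in 0% (0 of 102) against 8.22%. Il2rb, the IL-2 receptor beta chain (75.5% against 86.1%), and Ccl5, a chemokine gene (74.5% against 93.0%), were also in fewer. Klrb1c, which encodes NK1.1, was in 11.8% (6.23 to 19.6) against 7.21% (5.59 to 9.11), with overlapping intervals, and Klrb1 in 0 of 102 against 1.35%. Cd4 and Cd8a had no UMI in the 102 barcodes. Zbtb16 was as frequent with either segment alone, in 53.2% of the 47 barcodes with Trav11 and no Traj18 and in 44.4% of the 45 with Traj18 and no Trav11. Ikzf2 was alike too, in 61.7% and 60%. Eomes was in 0 of the 47 and 5 of the 45, and Klra7 in 2.13% and 15.6%, with overlapping intervals for both genes. Ccl5 stood at 602 and 3535 CPM.

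**Figure D5:**
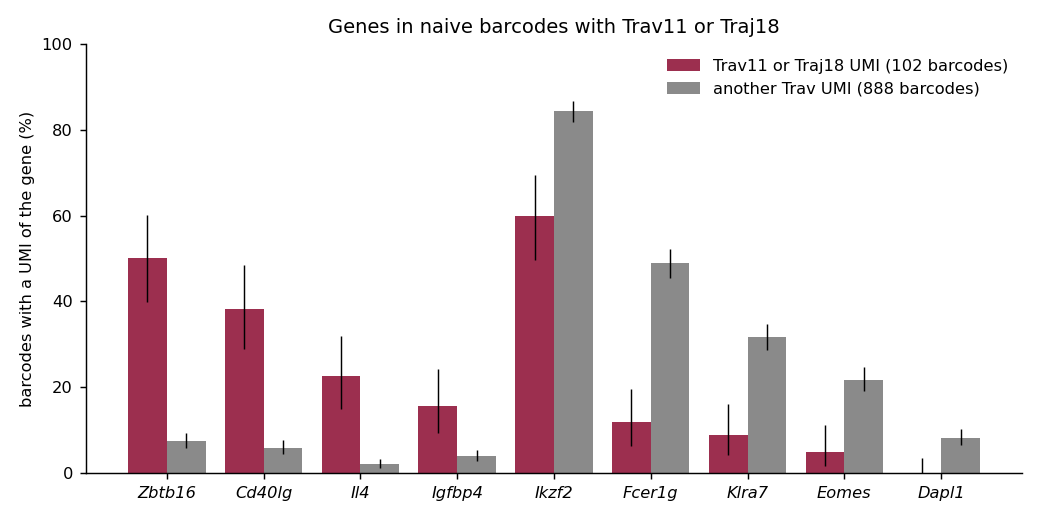
Share of naive barcodes (percent, bars start at 0) with a UMI of each gene, in the 102 barcodes with a Trav11 or Traj18 UMI (red) and the 888 with another Trav segment (grey); lines are 95% binomial intervals. Zbtb16, Cd40lg, Il4 and Igfbp4 are more frequent in the red class, and Ikzf2, Fcer1g, Klra7, Eomes and Dapl1 in the grey class.

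A ranking of genes by ratio, looked at after their values were seen, put further genes beside these. The lowest level of a listed gene in its higher class was 51.5 CPM (Klrc1). Apart from the segments, levels in the lower class went down to 3.79 CPM (Rbm24). The list thus holds genes that are high in 1 class, and it lends no support to a difference between the classes. In the Trav11 or Traj18 barcodes Rbm24 (55.3 against 3.79 CPM) and Fam83a (78.8 against 6.20 CPM) had the highest ratios after the segments themselves. The list also held Ckb, creatine kinase (302 against 34.8 CPM), and Lmo4, a LIM-domain cofactor (922 against 122 CPM). Rora, a nuclear receptor of innate lymphocytes (443 against 69.1 CPM), Il17re (59.4 against 7.08 CPM) and Il17a (74.8 against 6.20 CPM, in 12.7% of barcodes) were in it too. Bcl2a1b and Bcl2a1d, near-identical copies whose counts are uncertain, were in the same list. At the low end Ms4a4c stood at 7.17 against 69.4 CPM.

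Among activated cells, the 12 barcodes with Trav11 or Traj18 had Zbtb16 in 5 and Il4 in 3, against 6.86% and 2.21% of the 408 activated barcodes with another Trav segment. Fcer1g was in 5 of the 12 as well (41.7%, 15.2 to 72.3), an interval that holds the 58.8% of the 408. The median depth was 15558.5 UMIs in the 12 and 11631 in the 408, and the part of depth was not tested. Trav1 barcodes also held Zbtb16. Of the 26 activated Trav1 barcodes, 16 held Zbtb16 (61.5%, 40.6 to 79.8), while 2 held Fcer1g, found in 58.8% of the 408. Their median depth, 17310 UMIs, was above the 11631 of those 408, and the part of depth in these shares was not tested. In the naive library 8 of 19 Trav1 barcodes held Zbtb16 (42.1%, 20.3 to 66.5) and 7 held Fcer1g, at a median of 7404 UMIs. Traj33, the joining segment known from MAIT cells, had 0 UMIs in both libraries. Only 12 of the 60 Traj genes had any UMI, so this does not show which J segment the Trav1 barcodes use.

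Read the other way, the usage of some V segments in the naive library differed between barcodes with and without these marker genes. Among naive barcodes with a Trav UMI, Trav11 was in 31 of 106 with a Zbtb16 UMI (29.2%, 20.8 to 38.9) and in 26 of 863 without. It was in 0 of 200 with an Eomes UMI, against 57 of 769 without, and in 4 of 447 with Fcer1g, against 53 of 522 without. Trav16 was in 9.62% of those with Fcer1g (7.05 to 12.7), against 4.60% without (2.97 to 6.76), and in 1 of 106 with Zbtb16. With and without Eomes its shares, 18 of 200 and 49 of 769, had overlapping intervals. On the beta side, Trbv12-2 was in 20.2% to 32.5% of Trbv barcodes with any of 7 marker genes (Fcer1g, Klra7, Zbtb16, Dapl1, Eomes, Ikzf2 and Igfbp4), and led in each. Trbv13-2 was in 12 of 99 with Zbtb16 (12.1%, 6.42 to 20.2) and in 46 of 864 without (5.32%, 3.92 to 7.04), with overlapping intervals.

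Barcodes with 2 or more V segments of a chain were counted next. In the naive library 61 barcodes held 2 or more Trav segments (0.907% of all, 6.30% of those with any, 4.85 to 8.01) and 48 held 2 or more Trbv segments (0.713% of all, 4.98% of those with any, 3.70 to 6.55). In the activated library the counts were 61 for Trav (3.94% of all, 13.8% of those with any, 10.7 to 17.4) and 49 for Trbv (3.16% of all, 12.1% of those with any, 9.06 to 15.6). Most held exactly 2, namely 58, 45, 56 and 44 of them, and the highest number was 4 Trav segments in 1 activated barcode. Counts of families gave 61, 47, 57 and 45 barcodes, so near-identical copies made up few of them. Within each library the intervals of the shares among barcodes with any segment overlapped between the alpha and the beta chain.

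These barcodes were deeper than the rest. For Trav in the activated library the median was 8718 UMIs with no Trav segment, 11010 with 1 and 25194 with 2 or more, and for Trbv it was 8382, 18279 and 36323. In the naive library the Trav medians were 7445, 8047 and 8692, and the Trbv medians 7470, 8014 and 9437. With barcodes thinned to 4000 UMIs, 14 of 570 naive Trav barcodes (2.46%, 1.35 to 4.09) and 5 of 183 activated ones (2.73%, 0.893 to 6.26) held 2 or more, and for Trbv 16 of 487 (3.29%) and 6 of 128 (4.69%). At equal depth the intervals of the libraries overlapped for both chains. Asking for 2 UMIs of each segment left 3 and 0 naive barcodes and 10 and 4 activated barcodes for Trav and Trbv. The part of droplets with 2 cells in these counts was not tested, and no doublet caller was run.

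Of the 60 naive and 67 activated pairs of Trav segments seen in 1 barcode, 53 and 60 were seen once. The most frequent, in 2 barcodes each, included Trav16d-dv11 with Trav16n in the naive library and Trav16n with Trav6-7-dv9 in both. The beta chain had 1 frequent pair. Trbv12-2 and Trbv13-2 were together in 11 naive and 6 activated barcodes. Trbv12-2 was in 11 of the 58 naive barcodes with Trbv13-2 (19.0%, 9.87 to 31.4), against 4.01% of all naive barcodes and 23 of 682 taken over the other segments in at least 5 barcodes (3.37%, 2.15 to 5.02). In the activated library it was in 6 of 31 with Trbv13-2 (19.4%, 7.45 to 37.5), against 19 of 333 over the others (5.71%, 3.47 to 8.77), and these intervals overlap. Single segments with fewer barcodes reached like shares, such as Trbv14 and Trbv24 with 2 of 11 and 2 of 9 naive barcodes, and Trbv14 and Trbv13-3 with 2 of 5 and 4 of 26 activated barcodes. The median depth of the 11 naive barcodes was 9562 UMIs, and that of all naive Trbv13-2 barcodes 8529. In the activated library the 6 barcodes were deeper, with a median of 31264 UMIs against 18359, and the part of depth was not tested. Trbv13-2 is the next segment downstream of Trbv12-2 on chromosome 6, with 2031 bases between the genes. Trbv13-1, the next segment upstream with 2382 bases between, was found with Trbv12-2 in 0 of 65 naive and 1 of 26 activated barcodes. The next most frequent pair was Trbv3 with Trbv12-2 in the naive library and Trbv13-3 with Trbv12-2 in the activated library, each in 4 barcodes. The cause of the pair Trbv12-2 and Trbv13-2 was not tested.

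A segment of both chains was found in 135 naive (2.01%, 1.68 to 2.37) and 148 activated barcodes (9.55%, 8.14 to 11.1), and at least 1 segment of either in 1797 naive (26.7%) and 700 activated barcodes (45.2%). In the naive library a Trav UMI was as frequent among barcodes with a Trbv UMI (14.0%) as among those without (14.5%), while in the activated library the shares were 36.5% and 25.7%, where depth varied more. No alpha and beta pair was frequent: the most common naive ones, in 4 barcodes each, were Trav13-4-dv7, Trav16 or Trav6-7-dv9 with Trbv12-2 and Trav16 with Trbv13-2. Of the 57 naive Trav11 barcodes, 6 held a Trbv segment, and 3 of them held Trbv13-2, a partner known from NKT cells. Trbv13-2 was also in 4 of the 13 naive Trav16 barcodes with a Trbv segment. Of the 3 activated Trav11 barcodes with a Trbv segment, 2 held Trbv12-2 and 1 held Trbv13-2. With so few barcodes nothing is read from these pairs.

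Other receptor genes were taken as 1 list of 110 genes, of which 39 were detected and 18 had at least 30 UMIs. Of these 18, 2 were at least 2-fold higher and 6 at least 2-fold lower in the activated library, with a median ratio of 0.739. Beside this stand the shares of 17.6% higher and 17.3% lower over all genes, and with 18 genes nothing is read from the difference. Among the higher was Ptcra, the surrogate alpha chain of thymocytes, with 39 naive and 122 activated UMIs, the latter in 12 barcodes. Among the lower were Trdc, the delta constant gene (1964 and 375 UMIs), and Tcrg-C1, a gamma constant gene (2638 and 273 UMIs). No Trbj or D segment, and neither Rag1 nor Rag2, had a UMI in either library. Although TCRγδ+ cells were gated out, Trdc was found in 535 naive barcodes, and these held Trav in 15% (12 to 18.3) and Trbv in 16.6%, against 14.4% and 14.1% of naive barcodes without Trdc. The intervals with and without Trdc overlapped for both chains.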

How the data were processed

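The values are whole UMI counts, as deposited by the authors, 1 per gene and barcode, with no normalization. Cell Ranger 2.1.0 and 3.0.1 and the build mm10 (GRCm38) are given for the series per the submitters' processing notes, and software version 3.0.2 per the file headers of both matrices used. A barcode was used if it had 200 genes or more and its mitochondrial share was 10% or less. No doublet caller was run. UMIs of each V segment were summed per library and divided by all UMIs of the library (CPM) or by those of its chain (usage). For thinning, each barcode was drawn down without replacement to 4000 UMIs (seed 1), leaving out shallower ones. A share of 0 allows up to 3 counts of the total, and such limits, like the 95% intervals, cover counting error only. Segments with at least 30 UMIs over both libraries were compared at 2-fold. Annotation and sequences are from GENCODE vM21 (GRCm38), in which all 163 IDs were found, and sequence sharing was taken over windows of 90 bases of exon.

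The members and lists were chosen with earlier results of these data known. By rule, the text names the 10 segments of each chain with the most UMIs and every compared segment at least 2-fold apart. It also names segments of invariant receptors, Trbv31 and a list of other receptor genes. The 5 most frequent pairs of each chain were in the rule as well, but not all of them are named. Segments outside the rule were named after their values were seen. Replicates of the groups are biological per the labels, but each group had 1 library with V segments, so no test was made. SciPy 1.17.1, NumPy 2.4.6, Biopython 1.88, pandas 2.3.3 and matplotlib 3.10.9 under Python 3.11.15 were used, and the scripts were tested on simulated data. Other settings tried were the barcode filter, thinning, the UMI minimum, the denominator, the UMIs needed, families in place of segments, and leaving out the deepest, the marked or the richest barcodes. The results of 1 marker gene are not reported here.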

Additional observations from a re-analysis of the deposited data

How the results depend on the processing

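No paired analysis was possible because V segments are listed in 1 library per group, so the groups share fewer than 2 replicate numbers, and for the same reason no replicate could be left out. Of 100 values under other settings, 62 stayed within their interval or within 1.5 times their count, 38 moved and 0 changed direction. Only the level ratios among them have a direction, whereas shares, usages and counts cannot change it. Ratios of single segments were not among the 100. Without the richest barcodes, those of Trav14-3 and Trav8d-2 went from above 1 to 0.891 and 0.224. The causes were not tested. With barcodes thinned to 4000 UMIs the Trav level ratio was 1.48, the shares with Trav were 9.09% (naive) and 13.7% (activated), those with Trbv 7.76% and 9.56%, and the shares with 2 or more segments 0.223% and 0.373% for Trav and 0.255% and 0.448% for Trbv. Trav11 then took 0% and Trav16 9.09% of activated Trav UMIs, Trav16n 5.08% of naive ones, and 0 Trbv segments were at least 2-fold higher. Asking for 2 UMIs of a segment gave shares of 3.49% and 8.72% for Trav and 1.31% and 6.97% for Trbv, and shares with 2 or more such segments of 0.0446% and 0.646% for Trav and 0% and 0.258% for Trbv. With all deposited barcodes the naive Trbv share was 13.5% and 2 Trbv segments were higher. Counted by barcodes, Trav16n usage was 7.74% in the naive library.

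Counts of segments past 2-fold depended on the rule. With a minimum of 15 UMIs, 9 Trav segments were lower, and 2 Trbv segments were higher and 1 lower. With no minimum, 22 Trav segments were higher and 23 lower, and 5 Trbv segments were higher and 1 lower. On usage within the chain, 2 Trav and 0 Trbv segments were higher. In settings chosen after seeing the data, leaving out each segment's richest barcode gave 1 Trav segment higher, and the thinned share of barcodes gave 9 Trav segments higher and 1 lower, and 3 Trbv segments higher and 1 lower. Depth limits single segments, since 57 detected Trav and 8 detected Trbv segments held under 30 UMIs.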

Other observations

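Families of the alpha chain, examined after the values of their members were seen, differed between the libraries in both directions. The Trav9 family, 7 of whose 11 segments were detected, gave 79 UMIs in the naive and 11 in the activated library, a ratio of 0.295 (0.141 to 0.556 for counting error). Its members Trav9-4 and Trav9-2, with 21 and 18 naive UMIs, had 1 activated UMI each. The Trav16 family, 3 segments, gave 206 and 153 UMIs, a ratio of 1.57 (1.27 to 1.95), and the Trav8 family, 5 segments, gave 66 and 53 UMIs, a ratio of 1.70 (1.16 to 2.48), where 16 of the 53 activated UMIs were Trav8d-2 UMIs of 1 barcode.

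UMIs per barcode with a segment were higher for the alpha chain and in the activated library: 1.43 in the naive and 1.60 in the activated library for Trav, and 1.10 and 1.36 for Trbv. Activated barcodes were also deeper (median 9386 against 7556 UMIs), and the part of depth was not tested.

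The gamma chain segment Trgv2 had 748 UMIs in 600 naive and 727 UMIs in 309 activated barcodes, a ratio of 2.06 (1.86 to 2.28), while Tcrg-V1 (125 and 23 UMIs) and Tcrg-V4 (90 and 16 UMIs) had ratios of 0.389 and 0.376.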
